A study of Capra hircus with 30 samples.

Results

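The genes described here are the cell cycle families of the goat as measured in ovarian granulosa cells (GCs). They were chosen by symbol: A, B, D and E cyclins, the numbered cyclin-dependent kinases (CDKs), numbered CDC genes, the MCM genes, the centromere proteins named CENP plus a letter, the BUB genes, and the mitotic kinesins KIF11, KIF14, KIF15, KIF18A, KIF20A, KIF20B and KIF23. The reference gene list held 88 such symbols, and 83 were among the 20125 features of the expression table. CDC20B, CDC25A, CDC45, CDK5 and MCM5 were not analysed here. The 83 members are 11 cyclin genes, 18 kinases, 17 CDC genes, 8 MCM genes, 19 centromere genes, 3 BUB genes and 7 kinesins. The rule goes by name, so it also takes in genes with other roles: CCNB1IP1 is a ubiquitin ligase of meiotic recombination, CDC42 a small GTPase of the cytoskeleton, CDC73 a subunit of a transcription elongation complex, CDC40 a splicing factor, and CENPJ a protein of the centriole.

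Ji'ning grey goats were compared by litter size and follicle size. The deposit's text puts high fertility at more than 3 kids per birth and low fertility at fewer than 2, and the study's methods set these limits slightly differently. GCs came from large, medium and small follicles, which gives the groups HLG, HMG and HSG for high fertility and LLG, LMG and LSG for low fertility. Each group had 5 libraries, carrying the numbers 5, 7, 8, 9 and 10, and they are named here as group and number, for example HLG-8. No treatment is named, and the ages of the goats were not given in the sources used here. Follicles of several goats of a class were gathered, the GCs were parted from the oocytes with a pipette, and small batches of cells were sequenced, so a library is not an animal and p-values measure only the spread between these samples. Values are FPKM, fragments mapped to a gene scaled by the length of its exons and by the fragments mapped in the library.

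A dividing cell passes through G1, S phase (DNA replication), G2 and mitosis. D and E cyclins with CDK4, CDK6 and CDK2 drive it out of G1, the MCM helicase opens the DNA for replication, and A and B cyclins with CDK1 and CDK2 carry it through S phase into mitosis. There the centromere proteins tie chromosomes to the spindle, BUB proteins hold the cell until all are attached, and the anaphase-promoting complex then releases it. GCs divide while a follicle grows and leave the cell cycle when they luteinise, and p21, encoded by CDKN1A, is an inhibitor of the CDKs.

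The libraries differed widely in how many features they held, and this limits every result given here. Between 301 and 9256 of the 20125 features were above 0, and HSG-5, LLG-5, LLG-7 and LLG-10 held fewer than 1000. Large follicles had 14.0% of feature values above 0, medium follicles 32.6% and small follicles 24.7%. The table itself gives no counts, and the read numbers that the study lists for all but 4 of the libraries (HLG-5, HSG-5, LLG-5 and LLG-7) were not used here, so no counting error is given. A gene listed at 0 is not shown to be unexpressed. Of the granulosa cell markers, 7 of 8 were in the table and were above 0 in 19.0% of values: FSHR and AMH in 1 library each, INHA in 2, LHCGR in 4, FST in 8, CYP19A1 in 10 and INHBA in 14. Thus the defining markers of the labelled cell type were listed at 0 in most libraries. Markers of other cell types were above 0 in 8.67% of values for oocytes (5 of 8 listed genes in the table), 22.2% for theca (3 of 6), 14.2% for immune cells (4 of 5), 16.7% for red blood cells (1 of 3) and 24.2% for endothelium (4 of 4), with LHCGR in both the granulosa and the theca list. In such samples fewer cells of a type and less RNA per cell cannot be told apart.

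The cell cycle genes were low and scattered. Of their 2490 values (83 genes in 30 libraries), 642 or 25.8% were above 0, beside 23.8% for all features. The median of the values above 0 was 0.51 FPKM with quartiles of 0.11 and 1.27, against 0.55 FPKM with quartiles of 0.14 and 1.57 for all features. A value of at least 1 FPKM was reached 201 times, which is 31.3% of the values above 0 (35.9% over all features), and 25 members never reached it. None of the 83 was above 0 in all 30 libraries and none was at 0 in all of them. The median member was above 0 in 5 libraries, as was the median feature. There were 43 members in 5 libraries or fewer (51.8%, against 51.6% of features) and 16 members in 15 or more (19.3%, against 13.3%).

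The number of members above 0 varied between libraries. HLG libraries 5, 7, 8, 9 and 10 held 14, 15, 7, 23 and 34 members above 0. In HMG the same libraries held 28, 24, 13, 30 and 26, and in HSG 3, 20, 26, 22 and 14. In LLG they held 2, 2, 25, 7 and 2. Large follicles of low fertility thus had the lowest counts, with LLG-8 far above the others. LMG libraries held 31, 28, 33, 35 and 31 and were the most even, while LSG libraries held 31, 16, 35, 22 and 43. The means were 18.6 ± 10.3 (SD, n = 5) in HLG, 24.2 ± 6.65 in HMG, 17.0 ± 8.94 in HSG, 7.6 ± 9.96 in LLG, 31.6 ± 2.61 in LMG and 29.4 ± 10.6 in LSG. Read against all features, the members were above 0 in 22.4% of HLG values (features 17.7%), 29.2% of HMG (26.5%), 20.5% of HSG (21.7%), 9.16% of LLG (10.4%), 38.1% of LMG (38.6%) and 35.4% of LSG (27.8%). The share of members was higher than the share of features in 19 libraries and lower in 11.

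**Figure D1:**
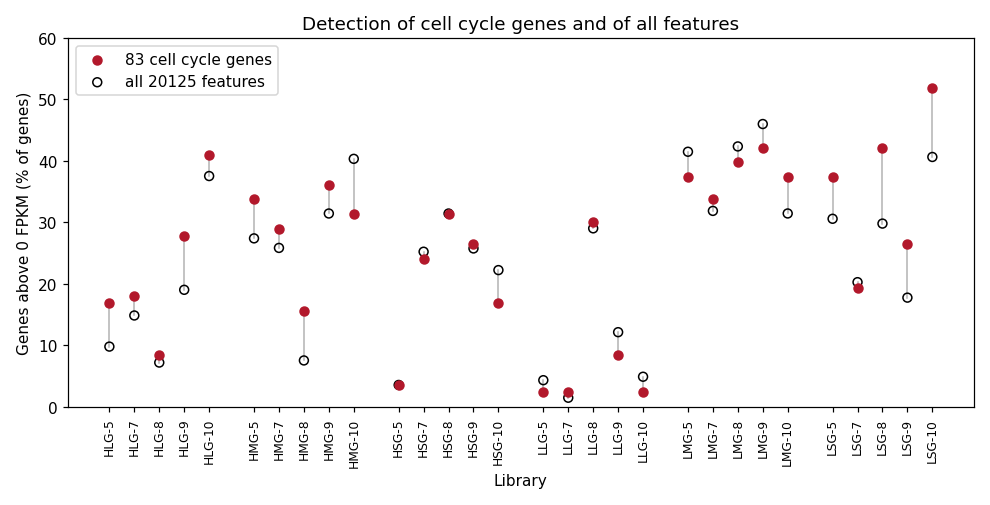
Percentage of genes above 0 FPKM in each library (x axis, by group). Filled points are the 83 members and open points all 20125 features, both as percentages. The LMG libraries sit between 33.7% and 42.2% of members and 4 of the 5 LLG libraries between 2.41% and 8.43%.

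Few members were above 0 in every library of a group. These were CDK6, CDK12, CDK13, CDK16 and CENPJ in HMG, CDK16 in HSG, CDK13, CDK16 and KIF11 in LSG, and 9 genes in LMG: CCND2, CDK6, CDK13, CDK16, CDC14A, CDC42, CDC73, MCM8 and CENPE. HLG and LLG had none. Among all 20125 features, 407 were above 0 in every library of HMG, 169 of HSG, 605 of LSG and 1896 of LMG. In HLG and LLG there were 131 and 69 such features. LMG thus had the most for all features as well as for the members. The heat map shows the values of the members.

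**Figure D2:**
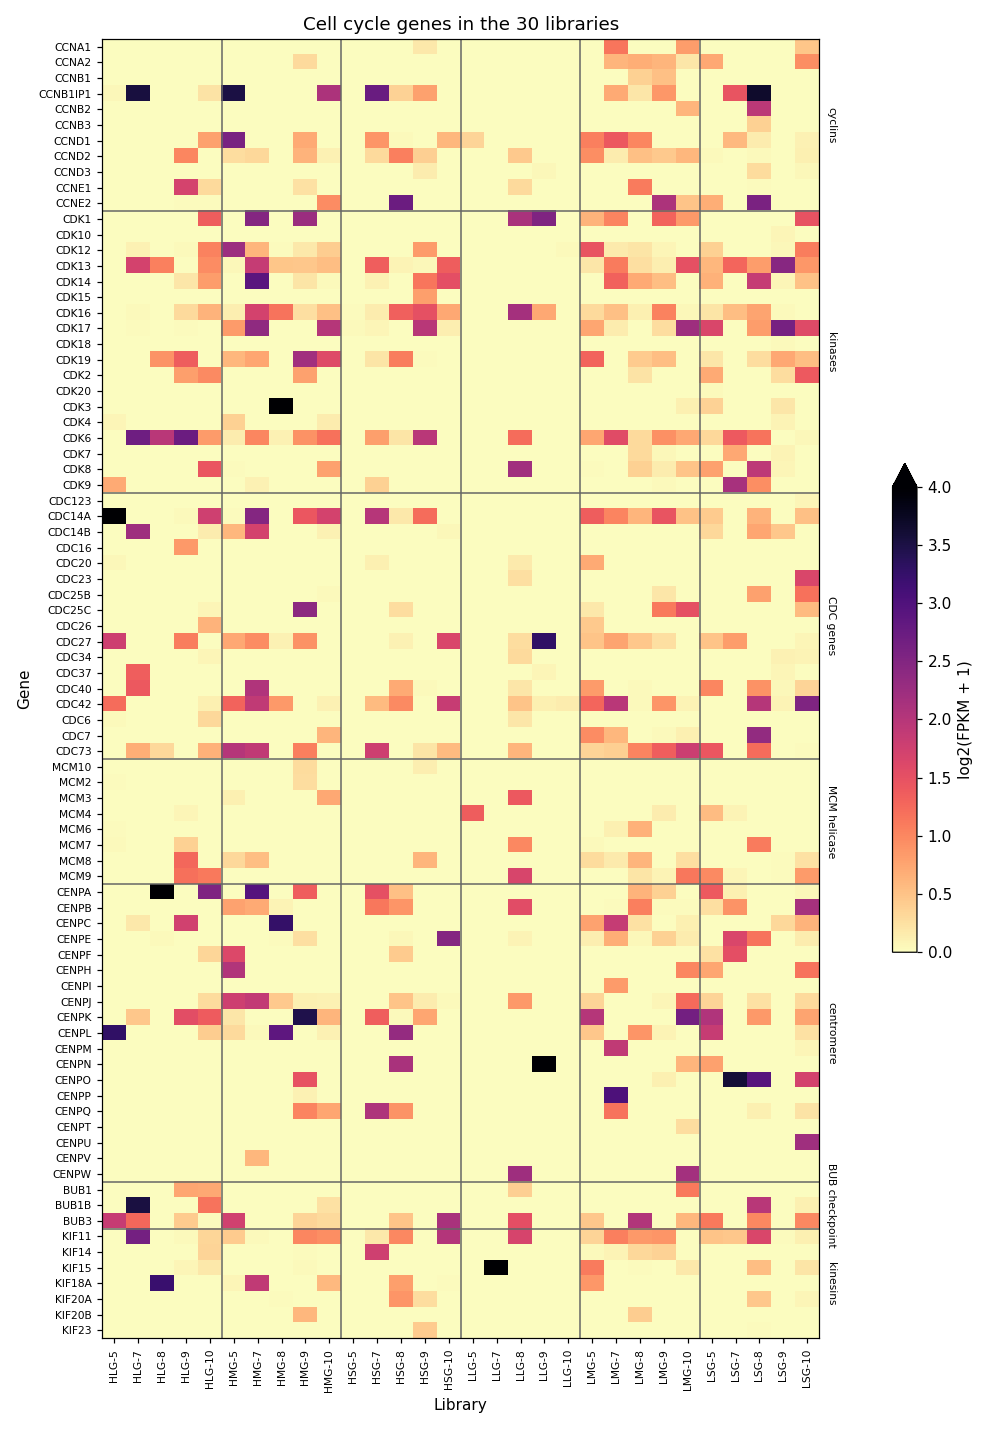
FPKM of the 83 members (rows, by family) in the 30 libraries (columns, by group), coloured on the log2(FPKM + 1) scale, palest at 0 and black at 4 or more. Most cells are at 0, the kinases are the fullest large block, and the LLG columns other than LLG-8 are nearly all pale.

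Among the cyclins, the G1 forms were the more often above 0. CCND2, a D cyclin induced in GCs by follicle-stimulating hormone, was above 0 in 18 libraries and CCND1 in 13, while CCND3 was above 0 in 4. The E cyclins CCNE1 and CCNE2, which act at the entry to S phase, were above 0 in 6 and 8 libraries. CCND2 stayed low where it was found. In LMG-5, 7, 8, 9 and 10 it stood at 0.93, 0.11, 0.44, 0.36 and 0.51 FPKM. In HMG it was 0.21, 0.25, 0, 0.55 and 0.07 FPKM, and in HSG 0, 0.23, 1.11, 0.32 and 0. HLG-9 held 1.02 and HLG-10 0.01 FPKM, LLG-8 held 0.36, LSG-5 and LSG-8 held 0.03 each and LSG-10 held 0.09, with the other libraries of these groups at 0. The highest CCND2 values were therefore near 1 FPKM, in HSG-8 and HLG-9, and the groups overlapped.

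CCND1 reached 5.01 FPKM in HMG-5, and its next values were 1.66, 1.1 and 1.02 FPKM in LMG-7, LMG-5 and LMG-8. It was between 0.03 and 0.85 FPKM in HMG-9, HLG-10, LLG-5 and 3 libraries each of HSG and LSG. All other libraries were listed at 0. CCNE2 was high in single libraries: 5.62 FPKM in HSG-8, 4.95 in LSG-8 and 3.26 in LMG-9, with 5 others between 0.02 and 0.95.

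The cyclins of S phase and mitosis were rarely seen. CCNA1, CCNA2, CCNB1, CCNB2 and CCNB3 together gave 16 values above 0. Large follicles had 0 of 50 values above 0, medium follicles 10 of 50 and small follicles 6 of 50. All features were above 0 in 14.0%, 32.6% and 24.7% of values in these sizes. By fertility there were 2 of 75 (2.67%) in high and 14 of 75 (18.7%) in low, beside 22.0% and 25.6% of all features. They lay in 2 libraries of high and 7 of low fertility, and the difference over these genes together was not tested. Gene by gene, Fisher's exact test (given below) had 0 members with an unadjusted p under 0.05 for high against low fertility. The G1 cyclins were above 0 in 23 of 75 values in high and 26 of 75 in low fertility. Most of the values above 0 of the S phase and mitosis cyclins lay in LMG (9 of 25) and LSG (5 of 25). HMG and HSG had 1 of 25 each. All features were above 0 in 38.6% of LMG, 27.8% of LSG, 26.5% of HMG and 21.7% of HSG values. In each of these groups the share of the S phase and mitosis cyclins was thus below that of all features. CCNA2, the A cyclin of body cells, was the commonest of these cyclins. It stood at 0.54, 0.61, 0.54 and 0.14 FPKM in LMG-7, 8, 9 and 10, at 0.65 in LSG-5, 0.93 in LSG-10 and 0.24 in HMG-9, and at 0 elsewhere. CCNB1, the main partner of CDK1 at mitosis, was above 0 only in LMG-8 (0.3 FPKM) and LMG-9 (0.44 FPKM). CCNB2 was found in LMG-10 (0.54 FPKM) and LSG-8 (2.85 FPKM), and CCNB3 in LSG-8 (0.31 FPKM). CCNA1, an A cyclin best known from the germ line, was above 0 in LMG-7, LMG-10, LSG-10 and HSG-9 at 0.13 to 1.22 FPKM.

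CCNB1IP1, which is not a cyclin, was among the members with the highest values. It reached 11.61 FPKM in LSG-8, 10.57 in HLG-7, 10.34 in HMG-5, 5.66 in HSG-7, 3.24 in HMG-10 and 1.75 in LSG-7. HLG-5 and HLG-10, HSG-8 and HSG-9, and LMG-7, LMG-8 and LMG-9 lay between 0.04 and 0.83 FPKM. The other 17 libraries, all 5 of LLG among them, were at 0.

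The kinases were the family most often above 0, at 34.8% of values, and 10 of the 18 passed the filter used for testing (above 0.5 FPKM in at least 5 libraries). The order did not follow the role in the cell cycle. CDK16, a kinase of the PCTAIRE branch, was above 0 in 25 libraries, CDK13 in 24, CDK6 in 22, CDK12 in 18, CDK17 and CDK19 in 17, CDK14 in 15, CDK8 in 11 and CDK1 in 10. CDK2 followed with 7 libraries, CDK9 with 6, and CDK3, CDK4 and CDK7 with 4 each. CDK10, CDK15, CDK18 and CDK20 were above 0 in 1 library each. The kinases that act on RNA polymerase II and Mediator (CDK7, CDK8, CDK9, CDK12, CDK13 and CDK19) were above 0 in 44.4% of values, and the cell cycle kinases CDK1, CDK2, CDK3, CDK4 and CDK6 in 31.3%.

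CDK6, a D cyclin partner, was the cell cycle kinase with the widest presence. It stood at 0, 5.48, 2.9, 5.62 and 0.78 FPKM in HLG-5, 7, 8, 9 and 10, and in LLG only LLG-8 was above 0, at 1.35 FPKM. HMG held 0.11, 1.02, 0.07, 0.89 and 1.27 FPKM and LMG 0.67, 1.97, 0.24, 0.91 and 0.66. Of the 4 highest values, 3 were in HLG and 1, at 2.91 FPKM, in HSG-9. HSG-7 and HSG-8 held 0.75 and 0.16 FPKM, and LSG-5, 7, 8 and 10 held 0.25, 1.65, 1.25 and 0.04. CDK4, its close relative, never passed 0.3 FPKM, and its 4 values lay in HLG-5, HMG-5, HMG-10 and LSG-9. All 18 libraries with CCND2 above 0 also had CDK6 above 0, as did 11 of the 13 with CCND1, while CCND1 and CDK4 met in 1 library. These counts share the depth of the libraries and are a description.

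CDK16 was above 0 in all libraries of the medium and small groups but stayed low. In libraries 5, 7, 8, 9 and 10 it held 0.1, 2.28, 1.25, 0.19 and 0.44 FPKM in HMG and 0.23, 0.43, 0.08, 1.06 and 0.04 in LMG. HSG held 0.02, 0.11, 1.52, 1.83 and 0.65 FPKM and LSG 0.16, 0.46, 0.69, 0.03 and 0.01. Its highest value was 3.47 FPKM, in LLG-8, with LLG-9 at 0.66 and HLG-7, 9 and 10 at 0.03, 0.23 and 0.55. No group stood above the rest for CDK16. CDK13, which phosphorylates RNA polymerase II, held 0.04, 2.59, 0.39, 0.38 and 0.46 FPKM in HMG, 0.14, 1.14, 0.2, 0.1 and 1.85 in LMG and 0.52, 1.45, 0.76, 4.44 and 0.83 in LSG. It was at 1.56, 0.06, 0.04 and 1.57 FPKM in HSG-7, 8, 9 and 10, at 2.28, 1.08 and 0.95 in HLG-7, 8 and 10, and at 0.01 in LLG-7 and LLG-8. The highest CDK13 value was that of LSG-9, and the groups overlapped.

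CDK1, the kinase of mitosis, was never between 0 and 0.55 FPKM. Its 10 values were 4.78 FPKM in LLG-9, 4.54 in HMG-7, 3.79 in HMG-9, 3.36 in LLG-8, 1.78 in LSG-10, 1.59 in HLG-10, 1.47 in LMG-9, 1.03 in LMG-7, 0.81 in LMG-10 and 0.55 in LMG-5. All HSG libraries were at 0. CDK1 coincided with CCNB1 in 1 library and with CCNB2 in 1. CDK2, the partner of E and A cyclins, was found in LSG-10 (1.64 FPKM), HLG-10 (0.96), HLG-9 (0.75), HMG-9 (0.73), LSG-5 (0.63), LSG-9 (0.21) and LMG-8 (0.17). Of the 7 libraries with CDK2, 4 also held CCNA2.

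CDK17, a relative of CDK16, was lowest in large follicles. In large follicles it was above 0 only in HLG-7 and HLG-9, at 0.02 FPKM each. Medium follicles held 0.78, 4.17 and 3.0 FPKM in HMG-5, 7 and 10 and 0.67, 0.11, 0.21 and 3.68 in LMG-5, 7, 9 and 10. Small follicles held 2.13, 0.76, 5.15 and 2.01 FPKM in LSG-5, 8, 9 and 10 and 0.03, 0.05, 2.94 and 0.1 in HSG-5, 7, 9 and 10. The large follicle values lay below every value above 0 in the other sizes, but 3 medium and 2 small libraries were also at 0.

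**Figure D3:**
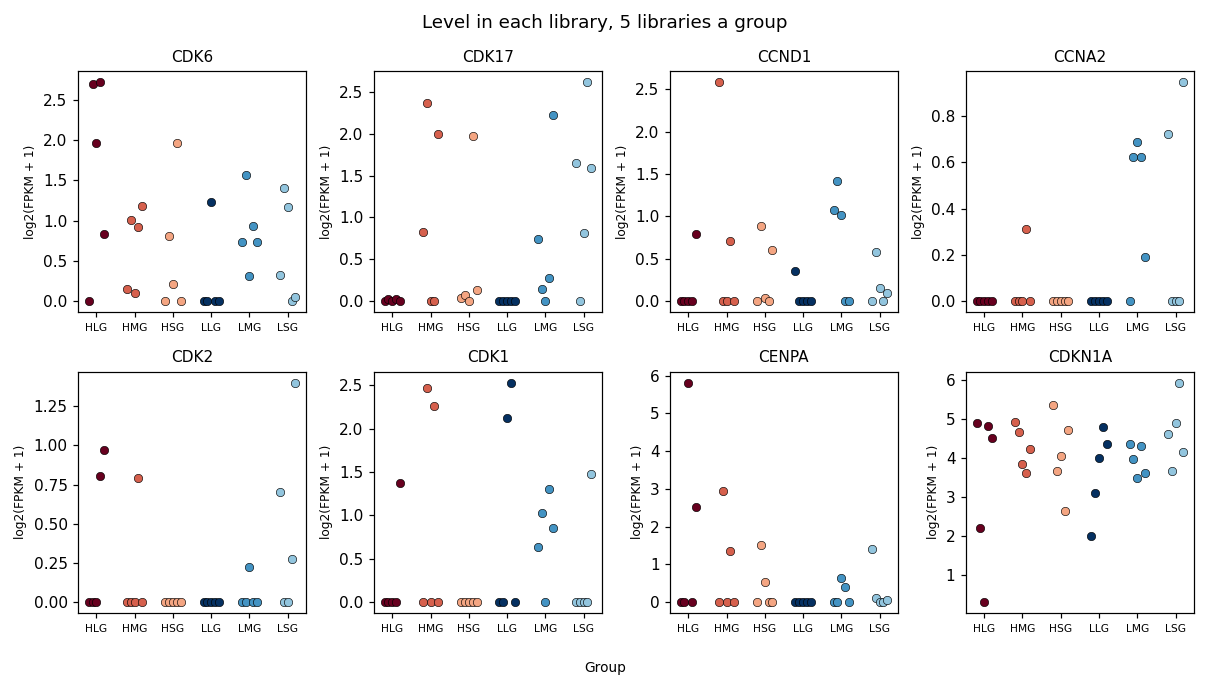
Level of 7 members and of CDKN1A in each library on the log2(FPKM + 1) scale, by group, with 1 point for each of the 5 libraries. CDK17 lies at or near 0 in HLG and LLG, CCNA2 is above 0 mainly in LMG and LSG, and CDKN1A is above 0 in all 30 libraries.

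The genes of the MCM family were the least often above 0, at 17.1% of values. The ring that unwinds DNA is built of MCM2 to MCM7, and 5 of these subunits were measured: MCM2 was above 0 in 2 libraries, MCM3 and MCM6 in 3, and MCM4 and MCM7 in 5. Together they gave 18 of 150 values above 0 (12.0%). No measured subunit was above 0 in 16 libraries, 1 was in 11 libraries, 2 were in 2 libraries, and 3 were in HLG-5 alone, at 0.02, 0.02 and 0.03 FPKM. The highest value of a ring subunit was 1.66 FPKM (MCM3 in LLG-8), followed by 1.57 (MCM4 in LLG-5) and 1.15 (MCM7 in LSG-8). MCM10, a replication factor outside the ring, was above 0 in 2 libraries. MCM8 and MCM9, which form a helicase of DNA repair, were found more often, in 11 and 10 libraries.

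MCM8 was above 0 in every LMG library, at 0.22, 0.12, 0.53, 0.01 and 0.19 FPKM, and was highest in HLG-9 (1.41 FPKM). It was also above 0 in HMG-5 (0.25), HMG-7 (0.45), HSG-9 (0.53), LSG-9 (0.02) and LSG-10 (0.18). MCM9 was above 0 in HLG-9 (1.28), HLG-10 (1.17), LLG-8 (2.18), LMG-8 (0.16), LMG-9 (0.06), LMG-10 (1.2), LSG-5 (0.96), LSG-7 (0.05), LSG-9 (0.02) and LSG-10 (0.79). HMG and HSG were wholly at 0 for MCM9. By group, MCM genes were above 0 in 5.0% of HSG values and 22.5% of LSG values, against 21.7% and 27.8% for all features.

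The CDC genes mixed several roles. The most often above 0 were CDC42 (20 libraries), CDC73 (19), the phosphatase CDC14A (18) and CDC27, a subunit of the anaphase-promoting complex (17). The other measured genes of that complex and its activator were rare: CDC20 in 4 libraries, CDC23 and CDC26 in 2 each and CDC16 in 1. The phosphatases that switch on CDK1 were in 4 (CDC25B) and 7 (CDC25C) libraries, and CDC14B was in 9. CDC6 and CDC7, which load and fire replication origins, were in 3 and 6 libraries. CDC40 was in 11, the ubiquitin-conjugating enzyme CDC34 in 4, the chaperone partner CDC37 in 3 and CDC123 in 1.

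CDC14A was highest in HLG-5, at 20.74 FPKM, with HLG-9 at 0.03 and HLG-10 at 2.4 FPKM. It held 0.02, 4.59, 1.68 and 2.29 FPKM in HMG-5, 7, 9 and 10, 1.58, 1.03, 0.53, 1.76 and 0.42 in LMG, and was listed at 0 in all of LLG. HSG-7, 8 and 9 held 2.97, 0.13 and 1.33 FPKM, and LSG-5, 8 and 10 held 0.34, 0.55 and 0.43. CDC73 was highest in medium follicles, at 3.03, 2.71 and 1.11 FPKM in HMG-5, 7 and 9 and 0.28, 0.32, 1.04, 1.56 and 2.46 in LMG. In large follicles it was 0.6, 0.25 and 0.57 FPKM in HLG-7, 8 and 10 and 0.54 in LLG-8, so no large follicle library reached 1 FPKM. Small follicles covered both ranges, with 0.01, 2.41, 0.16 and 0.49 FPKM in HSG-5, 7, 9 and 10 and 1.68, 1.33 and 0.02 in LSG-5, 8 and 10. CDC42 held 1.45, 2.9, 0.03, 0.85 and 0.06 FPKM in LMG-5, 7, 8, 9 and 10 and 1.46, 2.73, 0.8 and 0.07 in HMG-5, 7, 8 and 10. It was at 0.49, 0.97 and 2.57 FPKM in HSG-7, 8 and 10 and at 3.03, 0.06 and 4.77 in LSG-8, 9 and 10. In large follicles it was at 1.34 and 0.09 FPKM in HLG-5 and HLG-10 and at 0.41, 0.09 and 0.11 in LLG-8, 9 and 10. CDC42 was thus the member found in the most LLG libraries, and it was low in all 3.

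The centromere genes were above 0 in 22.1% of values. CENPE, a kinesin-like motor of the kinetochore, and CENPJ were in 16 libraries, CENPK in 14, CENPB in 13, CENPL in 12, CENPA in 11, CENPC in 9 and CENPQ in 7. CENPF and CENPO were in 5, CENPH and CENPN in 4, CENPM, CENPP and CENPW in 2, and CENPI, CENPT, CENPU and CENPV in 1. Large follicles had 8.95% of centromere values above 0, medium follicles 31.6% and small follicles 25.8%, beside 14.0%, 32.6% and 24.7% of all features. These shares go by name and include CENPJ of the centriole, above 0 in 2 large, 8 medium and 6 small follicle libraries.

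CENPA, the histone H3 variant that marks the centromere, had the highest value of any member, 55.44 FPKM in HLG-8. That single value was 80.5% of the summed FPKM of all members in that library. Elsewhere CENPA stood at 4.75 FPKM in HLG-10, 6.73 in HMG-7, 1.55 in HMG-9, 1.84 in HSG-7, 0.44 in HSG-8, 0.55 in LMG-8, 0.31 in LMG-9, 1.63 in LSG-5, 0.08 in LSG-7 and 0.04 in LSG-10. LLG was wholly at 0. CENPC, which binds CENPA chromatin, was above 0 with CENPA in 2 libraries of 11 and 9. CENPE was above 0 in all LMG libraries, at 0.1, 0.61, 0.04, 0.3 and 0.11 FPKM. It was highest in HSG-10 (4.55), LSG-7 (2.14) and LSG-8 (1.23), and at 0.01 to 0.19 in HLG-8 (0.03), HMG-5 (0.01), HMG-8 (0.02), HMG-9 (0.19), HSG-8 (0.04), HSG-9 (0.01), LLG-8 (0.06) and LSG-10 (0.11). Its level was thus below 1 FPKM in 13 of the 16 libraries. CENPJ was above 0 in all HMG libraries, at 2.42, 2.67, 0.36, 0.08 and 0.07 FPKM, and its only large follicle values were 0.22 in HLG-10 and 0.8 in LLG-8. HSG-8, 9 and 10 held 0.41, 0.11 and 0.03 FPKM of CENPJ, LMG-5, 9 and 10 held 0.28, 0.05 and 1.36, and LSG-5, 8 and 10 held 0.28, 0.18 and 0.24.

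The 3 BUB genes act together at the spindle checkpoint. BUB3, which carries the others to the kinetochore, was above 0 in 16 libraries, BUB1B in 5 and BUB1 in 4. Every library with BUB1 or BUB1B above 0 also had BUB3 above 0 (4 of 4 and 5 of 5). These counts too share the depth of the libraries and are a description. BUB3 stood at 2.56, 1.43, 0.35 and 0.02 FPKM in HLG-5, 7, 9 and 10, 2.34, 0.27 and 0.24 in HMG-5, 9 and 10, and 0.41 and 3.33 in HSG-8 and HSG-10. LMG-5, 8 and 10 held 0.38, 3.13 and 0.52 FPKM, LSG-5, 8 and 10 held 1.18, 0.98 and 0.99, and LLG-8 held 1.86, so all groups overlapped. BUB1B was 10.55 FPKM in HLG-7, 2.92 in LSG-8, 1.25 in HLG-10, 0.18 in HMG-10 and 0.08 in LSG-10. BUB1 lay between 0.32 and 1.16 FPKM in HLG-9, HLG-10, LLG-8 and LMG-10. The 3 genes were above 0 in 8 of 15 values in HLG, 5 of 15 in LSG, 4 of 15 in HMG and in LMG, and 2 of 15 in HSG and in LLG. All features were above 0 in 17.7% of HLG, 27.8% of LSG, 26.5% of HMG, 38.6% of LMG, 21.7% of HSG and 10.4% of LLG values.

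Of the kinesins, KIF11, which pushes the spindle poles apart, was above 0 in 20 libraries and in all of LSG. HLG-7, 9 and 10 held 5.18, 0.03 and 0.26 FPKM, HMG-5, 7, 9 and 10 held 0.34, 0.03, 1.01 and 0.93, and HSG-7, 8 and 10 held 0.13, 0.98 and 3.05. LMG-5, 7, 8 and 9 held 0.28, 1.09, 0.81 and 0.84 FPKM, LSG-5, 7, 8, 9 and 10 held 0.41, 0.38, 2.13, 0.02 and 0.09, and LLG-8 held 2.21. Its highest values, in HLG-7 and HSG-10, were thus in single libraries of their groups. KIF15, which can do similar work, was above 0 in 9 libraries. Its value of 22.81 FPKM in LLG-7 stood alone, since LMG-5 followed with 1.15, LSG-8 with 0.46 and LSG-10 with 0.16. HLG-10 and LMG-10 were at 0.13, HLG-9 at 0.05, HMG-9 at 0.03 and LMG-8 at 0.02 FPKM. KIF14 and KIF18A were in 7 libraries, KIF20A in 5, KIF20B in 3 and KIF23, needed to complete division, in 2.

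**Figure D4:**
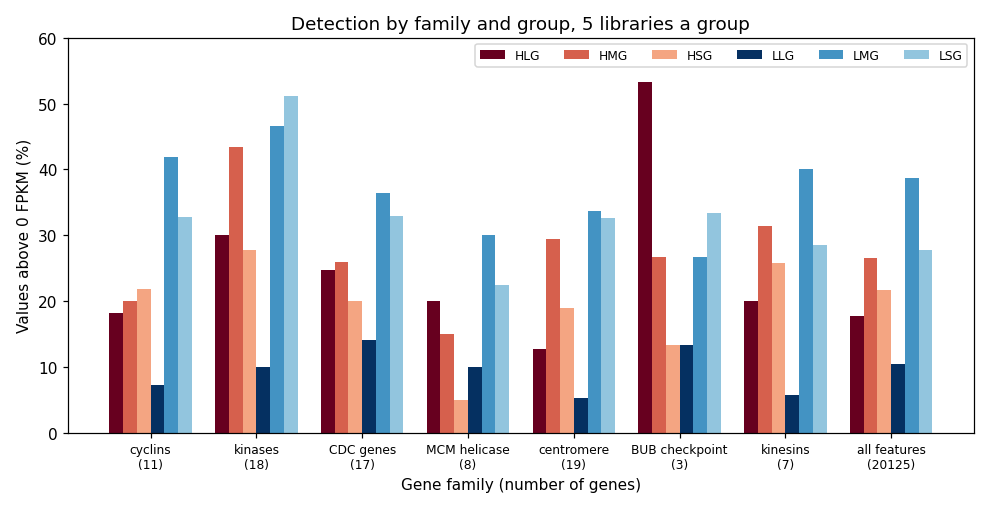
Percentage of values above 0 for each family in each group, with all features for reference. Kinases lie above all features in every group but LLG, and MCM genes lie below all features in HMG, HSG, LLG, LMG and LSG.

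High values of the members were mostly lone values. There were 11 values of at least 10 FPKM, and the 5 highest were CENPA in HLG-8 (55.44), CDK3 in HMG-8 (27.52), KIF15 in LLG-7 (22.81), CDC14A in HLG-5 (20.74) and CENPN in LLG-9 (14.7). These libraries held 1452, 1521, 301, 1974 and 2446 features above 0, and those of the other 6 values 2992 to 6329. Each of the 5 was over 50% of its library's summed member FPKM (50.5% for CENPN, 56.5% for CDC14A, 60.7% for CDK3). For 48 members more than 50% of the summed FPKM over the 30 libraries came from 1 library, 11 of which were above 0 in that library alone. Among members found in more than 1 library the share was 51.4%, beside 48.5% of such features. The summed FPKM of the members was 39.2 ± 18.8 (SD, n = 5) in HLG, 38.6 ± 12.4 in HMG, 17.5 ± 10.6 in HSG, 16.8 ± 14.7 in LLG, 23.7 ± 7.14 in LMG and 31.0 ± 17.3 in LSG, from 0.06 in HSG-5 to 68.83 in HLG-8.

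In contrast to the members, CDKN1A was above 0 in all 30 libraries and was among 58 features of the table with that property. It ran from 0.23 FPKM in HLG-8 to 60.64 in LSG-9, with a median of 17.3. The group means were 16.5 ± 13.6 FPKM (SD, n = 5) in HLG, 19.3 ± 7.61 in HMG, 19.7 ± 13.7 in HSG, 14.4 ± 9.53 in LLG, 15.0 ± 4.36 in LMG and 28.3 ± 19.2 in LSG. All groups overlapped, and its adjusted p by limma was 0.615 or more in every comparison. Even LLG-5, LLG-7, LLG-10 and HSG-5, where 2 or 3 members were above 0, held 2.99, 7.65, 19.53 and 40.22 FPKM of CDKN1A. Of the other inhibitors and pocket proteins, the next were RBL1 (20 libraries, up to 2.48 FPKM) and RBL2 (9 libraries, up to 0.59 FPKM). Of this list 11 of 12 genes were in the table and 3 passed the filter.

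The question of fertility was tested with limma on log2(FPKM + 1), where the 29 members that passed the filter stood beside 6058 features in all. In large follicles (HLG against LLG), 0 of 29 members passed an adjusted p of 0.05, as did 0% of all features. Before adjustment 3 members lay under 0.05, beside 4.8% of features. CDK6 was higher in HLG by 1.40 ± 0.54 (SE) on the log2 scale, with an adjusted p of 0.976 by limma. CENPA and CDC14A, both with adjusted p = 0.976 by limma, were listed at 0 in every LLG library, so no fold is given. Of the 29, 11 were listed at 0 in all of LLG but not of HLG. For 1, CENPB, the reverse held, and 2, CCNA2 and CENPQ, were at 0 in both groups. These counts were not made over all features, so they are no trait of the members. All features were above 0 in 10.4% of LLG values and 17.7% of HLG values. LLG libraries held 2 to 25 members above 0. The median difference was 0.21 for the members and 0.10 for all features, and 0.090 and 0.019 with the number of features above 0 of each library as a covariate (the detection covariate).

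In medium follicles (HMG against LMG), 0 of 29 members and 0% of features passed, and before adjustment 1 member did, beside 5.15% of features. This was CCNA2, lower in HMG by a log2 difference of -0.36 ± 0.18 (SE), adjusted p = 0.951 by limma, and above 0 in 4 of 5 LMG libraries but 1 of 5 of HMG. All 5 of its values above 0.5 FPKM were in low fertility, so it passed the filter only through the libraries where it was high, and its direction is a description. The median difference was 0.08 for the members and -0.07 for all features. It turned to -0.094 for the members with median scaling, and to 0.092 for all features with the detection covariate (members 0.23). In small follicles (HSG against LSG), 0 of 29 members and 0% of features passed. Before adjustment 1 member did, beside 6.39% of features: CDK2 (adjusted p = 0.776 by limma), listed at 0 in all of HSG and above 0 in 3 of 5 LSG libraries. Of its 5 values above 0.5 FPKM, 2 were in LSG. There 6 of the 29 were at 0 in all of HSG, a count that was not made over all features. All features were above 0 in 21.7% of HSG values and 27.8% of LSG values. The median difference was -0.11 for the members and -0.09 for all features (-0.023 and -0.012 with the detection covariate).

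Over the 3 sizes together (high against low fertility), 0 of 29 members and 0% of features passed, and 2 members had an unadjusted p under 0.05, beside 3.95% of features. CCNA2, which passed the filter only through low fertility, had a log2 difference of -0.23 ± 0.10 (SE), adjusted p = 0.952 by limma. CENPA was higher by 0.81 ± 0.39 (SE), adjusted p = 0.952 by limma, but the difference was 0.46 without HLG-8. Of the 7 CENPA values above 0.5 FPKM, 5 were in high and 2 in low fertility. It thus passed the filter mainly through high fertility, and its direction is a description. The median was 0.06 for the members and -0.01 for all features, and 0.099 and 0.041 with the detection covariate. No member passed the test of whether the effect of fertility differed by follicle size (0% of features). The lowest unadjusted p was that of CDK2 at 0.0380, adjusted p = 0.895 by limma, beside 4.67% of features under 0.05.

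Follicle sizes were compared next, averaged over fertility. Between large and medium follicles, 0 of 29 members and 0% of features passed, and 3 members had an unadjusted p under 0.05, beside 11.5% of features. CDK17 had a log2 difference of -0.85 ± 0.37 (SE), adjusted p = 0.392 by limma. All 10 of its values above 0.5 FPKM were in medium or small follicles, so it passed the filter only through the sizes where it was high, and its direction is a description. CDC73 differed by -0.76 ± 0.33 (SE), adjusted p = 0.406 by limma. CCND1 differed by -0.57 ± 0.27 (SE), adjusted p = 0.424 by limma, and by -0.32 without HMG-5. Of the 8 CCND1 values above 0.5 FPKM, 5 were in medium and 1 in large follicles. It thus passed the filter mainly through medium follicles, where it was high, and its direction is a description. The median difference was -0.25 for the members and -0.25 for all features. Large follicle libraries also had fewer features above 0 (14.0% against 32.6%). With the detection covariate the medians were -0.023 for the members and 0.0022 for all features, and the differences of CDK17, CDC73 and CCND1 were -0.70, -0.49 and -0.44.

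**Figure D5:**
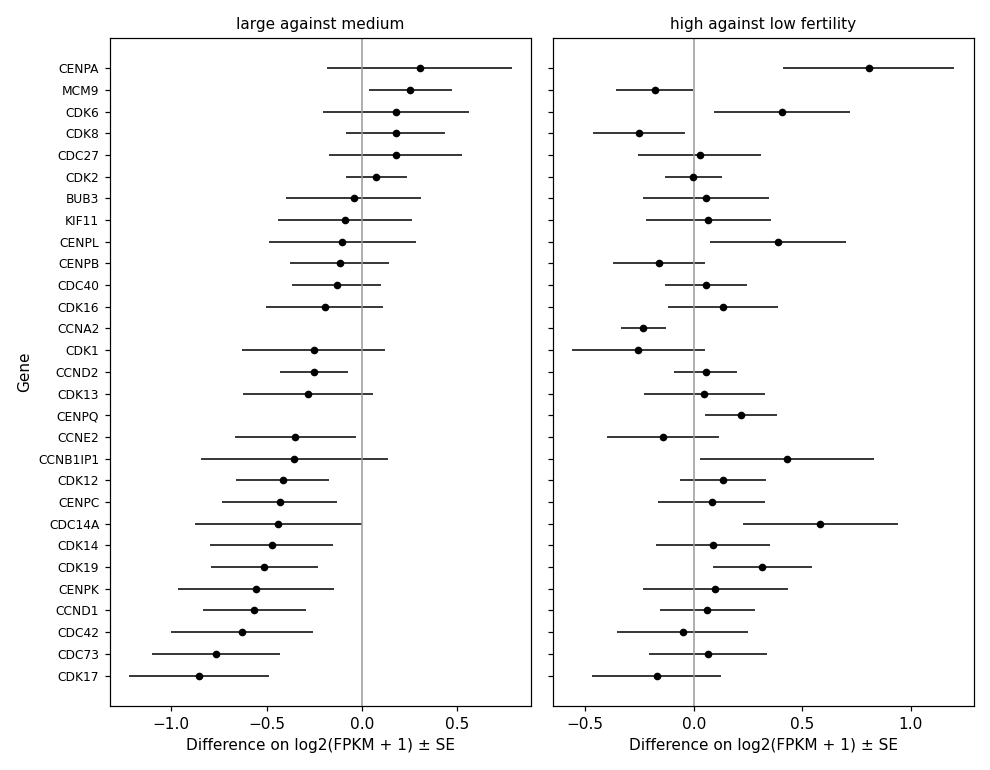
Log2 difference ± SE from limma for the members that passed the filter, large against medium follicles on the left and high against low fertility on the right. Genes listed at 0 in a whole class (CCNA2 and CENPQ in large follicles) carry no point, and no member passed an adjusted p of 0.05.

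Between large and small follicles, 0 of 29 members and 0% of features passed. CDK17, selected as above, was the 1 member with an unadjusted p under 0.05, beside 8.42% of features, with a log2 difference of -0.88 ± 0.37 (SE), adjusted p = 0.557 by limma. The median difference was -0.12 for the members and -0.19 for all features, and 0.030 and -0.052 with the detection covariate. Between medium and small follicles, 0 of 29 members passed, beside 0.0165% of features (1 feature), and 0 members had an unadjusted p under 0.05, beside 5.13% of features. The lowest was that of CDK1, higher in medium follicles by 0.71 ± 0.37 (SE), adjusted p = 0.938 by limma, and by 0.41 with the detection covariate. Of the 10 CDK1 values above 0.5 FPKM, 6 were in medium and 1 in small follicles. It thus passed the filter mainly through medium follicles, and its direction is a description. The median was 0.04 for the members and 0.05 for all features, and -0.054 and -0.049 with that covariate.

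Whether a member was above 0 more often in a class was asked of all 83 with Fisher's exact test. No member passed after adjustment over all 20125 features, nor did any feature. Before adjustment 11 members differed between large and medium follicles, beside 6.17% of features: CCND2, CCNA2, CDK6, CDK13, CDK16, CDC7, CDC14A, MCM8, CENPB, CENPE and CENPJ, with a lowest adjusted p of 0.468. Each was more often above 0 in medium follicles, where the share of all features was also higher. CDK16 and CDK17 differed between large and small follicles (1.66% of features) and MCM9 between HSG and LSG (0.626%). The other comparisons gave 0 members, beside 0.303% of features for HLG against LLG, 1.49% for HMG against LMG, 0.85% for high against low fertility and 0.979% for medium against small. In no comparison did the FPKM of a member separate the groups without overlap, beside 0.132% of features for HLG against LLG, 1.11% for HMG against LMG, 0.248% for HSG against LSG, 0.033% for large against medium and 0% for the other 3.

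Further genes of the cell cycle were also scattered. Of a list of 12 genes of the G1 to S transition, 11 were in the table, 4 passed the filter and 0 were called in any comparison, beside 0% of features in 7 comparisons and 0.0165% in medium against small. The ribonucleotide reductase subunit RRM2 was above 0 in 12 libraries, at 0.02 to 4.9 FPKM, and GINS2, part of the replicative helicase, in 11, at 0.01 to 1.17. GINS2 had the lowest unadjusted p, at 0.0109 between large and medium follicles (log2 difference -0.46 ± 0.17 (SE), adjusted p = 0.356 by limma). Its 6 values above 0.5 FPKM lay only in medium or small follicles. GINS2 thus passed the filter only through the sizes other than large, and its direction is a description. All 15 genes of a mitosis list were in the table, 5 passed and 0 were called, beside the same shares of features. MKI67, the proliferation marker Ki-67, and the checkpoint kinase TTK were above 0 in 16 libraries each and ECT2, needed for cytokinesis, in 15. TTK reached 1.68 FPKM (HSG-8) and ECT2 10.16 FPKM (LLG-5). That ECT2 value stood alone in a library with 875 features above 0, and the next was 2.39 FPKM in LMG-10. PRC1, which bundles the spindle midzone, had the lowest unadjusted p of this list, 0.0317 for HLG against LLG (adjusted p = 0.976 by limma). It was listed at 0 in all of LLG and was above 0 in 2 HLG libraries, at 10.28 FPKM in HLG-5 and 0.91 in HLG-10. Its direction is a description. MKI67 never passed 1.29 FPKM, its value in HSG-7, and was listed at 0 in all of LLG. Of the 3 tested inhibitors, CDKN1A among them, 0 were called, beside those shares.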

How the data were processed

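GCs of 30 libraries in 6 groups (5 each) were measured by RNA sequencing after removal of ribosomal RNA. The authors kept uniquely aligned reads, dropped duplicates (picard) and derived FPKM in Cufflinks 2.2.1 (version from the submitters' processing notes), and the deposited table holds FPKM per feature to 2 decimals. The aligner and its genome build are not given in the sources used here. Groups came from the sample titles and all 30 columns were matched by name.

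Of 17946 NCBI gene numbers, 17945 were paired with symbols through the RefSeq table of assembly ARS1.2, used for names only. Differences were tested two-sided with limma 3.58.1 (R 4.3.3) on log2(FPKM + 1), with a robust trended prior, in 1 fit of all libraries with 6 group means. Features above 0.5 FPKM in at least 5 libraries entered (6058, with 29 of 83 members), and p-values were adjusted by Benjamini-Hochberg over all of them at 0.05. A log2 difference on this scale understates the change of low genes. Fisher's exact test compared the libraries above 0 over all 20125 features. The limma script was first tested on values shuffled within each feature, with a large known difference added to some features in HLG. Shuffling took away the differences between libraries in features above 0. That test therefore does not show what limma could detect in these data. Python 3.11.15 was used for all other steps. No 2 libraries were identical.

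Values of all libraries are given for the 2 members per family above 0 in the most libraries, and the member with the lowest p in each comparison and members with an unadjusted p under 0.05 are named. Up to 3 genes of each further list (G1 to S phase, mitosis, inhibitors) are named with their highest value or range. The values of 1 list gene are not reported here. CCND1, CDK4, CCNE2, BUB1, MKI67, the rarer cyclins, the MCM ring, the 5 highest values and the lowest p of the further lists were picked after their values were seen. The members and lists were chosen with earlier results of these data known. Alternatives were another pseudocount (0.1), other filters, median scaling, array weights, a block for the library number, a detection covariate and left-out libraries. Leaving out the 4 libraries under 1000 features was chosen after seeing the data.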

Additional observations from a re-analysis of the deposited data

Results flagged for a closer look

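The members above 0, the members at 1 FPKM or more and the summed FPKM were examined in each group for a value set apart from the other 4. Of these 18 sets 1 had such a value, about as many as chance gives (0.9, or 1 in 20). LLG-8 held 25 members above 0, while the other LLG libraries held 2 to 7. It also held 5843 features above 0, beside 301 to 2446 in the other 4. Without LLG-8 the mean of LLG was 3.25 members.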

How the results depend on the processing

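In 319 alternative fits, 0 members were called, but features were called in only 35 of them and 0.33% at most (20 of 6058, HLG against LLG without the 4 libraries under 1000 features), so these counts say little about the members. Among members the lowest adjusted p was 0.127 (CDC73, large against medium follicles, with array weights). The 12 named differences kept their sign in all 462 alternative values, and 0 passed 0.05. They were picked by low p in these same data. CENPA and CDC14A were also at 0 in all of LLG, and CDK2 in all of HSG. A change of sign was therefore unlikely from the start, and the kept signs say little. The pseudocount of 0.1 raised the size of the named differences, for example CDK6 in HLG against LLG to 3.17. It also moved the median of all features between large and medium follicles from -0.25 to -0.93, median scaling to -0.38 and the detection covariate to 0.0022. That covariate also turned the sign of the median of the members in large against small (0.030) and in medium against small (-0.054), and of all features in HMG against LMG (0.092), high against low fertility (0.041) and medium against small (-0.049). With the limit set at 1 FPKM, the mean number of members was 7.0 in HLG, 8.4 in HMG, 5.4 in HSG, 8.2 in LMG, 8.2 in LSG and 3.0 in LLG. With each library left out in turn, the means ran from 14.75 to 21.5 in HLG, 22.75 to 27.0 in HMG, 14.75 to 20.5 in HSG, 3.25 to 9.0 in LLG, 30.75 to 32.5 in LMG and 26.0 to 32.75 in LSG, and 0 to 0 members were called. The lowest value in LLG was that without LLG-8.

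The library numbers are not stated to mark a shared animal, batch or day. Deviations of libraries with the same number correlated at -0.0335 to 0.124 (mean 0.0071, other numbers -0.0017), 1 of 75 pairs was over 0.1, and 7 of 30 libraries correlated best with their own number. With the number as a replicate block, 0 members were called in every comparison. The many values of 0 limit what these tests could detect.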
